A study of Rattus norvegicus with 18 samples.

Results

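Senexin A, a small-molecule inhibitor of CDK8 and its close relative CDK19, was given to cultured heart muscle cells of newborn rats at 50 µM and at 10 µM. The mRNA of the 3 libraries at 50 µM was compared with that of the 3 libraries at 10 µM. These 6 of the 18 libraries of the study were chosen by their labels (Senexin A alone, without the hypertrophic agonist phenylephrine). The comparison was made over the 10478 of 17303 deposited gene rows that reached at least 1 FPKM (fragments normalized to gene length and to the mapped fragments of the library) in at least 3 of the 18 libraries. The 50 µM and the 10 µM groups shared the rest of their handling: ventricular myocytes of Wistar rats at postnatal day 3, 48 h of AraC, 24 h without serum, and then 48 h of Senexin A with the medium renewed at 24 h. The other groups used here were 50 µM and 10 µM Senexin A with 10 µM phenylephrine, and Vehicle, which received neither agent, each of 3 libraries with the same handling. AraC kills dividing cells and so limits, without removing, the non-myocytes of such cultures. The labels name no animals or cultures behind a library. The p-values therefore rest on how far these libraries spread, and part or all of that spread may be technical. Libraries of the same replicate number were alike across groups. The p-values leave this pairing out unless the replicate number is named as a block.

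CDK8, or its relative CDK19, forms with cyclin C, MED12 and MED13 the kinase module of Mediator, the large complex that links transcription factors to RNA polymerase II. The module can hold back or promote transcription, depending on the gene and the signal, so that it has no single target pathway. In heart muscle cells of the newborn, the programmes of contraction, calcium cycling and oxidative metabolism are still maturing, and the cells are just leaving the cell cycle.

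At the higher dose, many stress response, amino acid and antioxidant genes rose, and many cell cycle, matrix and contractile genes fell. Of the 10478 genes tested, 5276 passed an adjusted p of 0.05 (limma on log2(FPKM + 1), Benjamini-Hochberg), which is 50.4% of them. In this count 2663 genes were higher at 50 µM (25.4% of those tested) and 2613 were lower (24.9%). A change of at least 2-fold was seen for 741 of the called genes (7.07%), and these leaned to the lower side, with 240 higher (2.29%) and 501 lower (4.78%). At least 4-fold changes were called for 29 higher and 33 lower genes. The 3 values at 50 µM and the 3 at 10 µM did not overlap for 54.8% of the tested genes. Over the 10478 genes, the median log2 difference was -0.018. When the test asked for evidence of more than a 2-fold change in place of any change, 152 genes passed, 71 of them higher and 81 lower.

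The 6 libraries were similar in depth and in the share of their most abundant genes. Rows at 1 FPKM or more were fewer at 50 µM (9742 to 9866) than at 10 µM (10069 to 10120), without overlap. FPKM sums were 755249 to 826406 at 50 µM and 699695 to 746492 at 10 µM, and the 10 most abundant genes took 11.1% to 13.1% and 11.9% to 14.5% of these sums, with Myl2 the highest in each library. The total number of reads was not given, but the steps between low values put the depth of the other libraries at 1.05 to 1.16 (50 µM) and 1.07 to 1.09 (10 µM) times that of 10 µM replicate 1. Libraries of 1 group correlated over genes with r of 0.988 to 0.9899 at 50 µM and 0.9868 to 0.9879 at 10 µM. The defining markers of heart muscle cells were abundant throughout, with all 10 at or above 1 FPKM in each library of either dose.

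**Figure D1:**
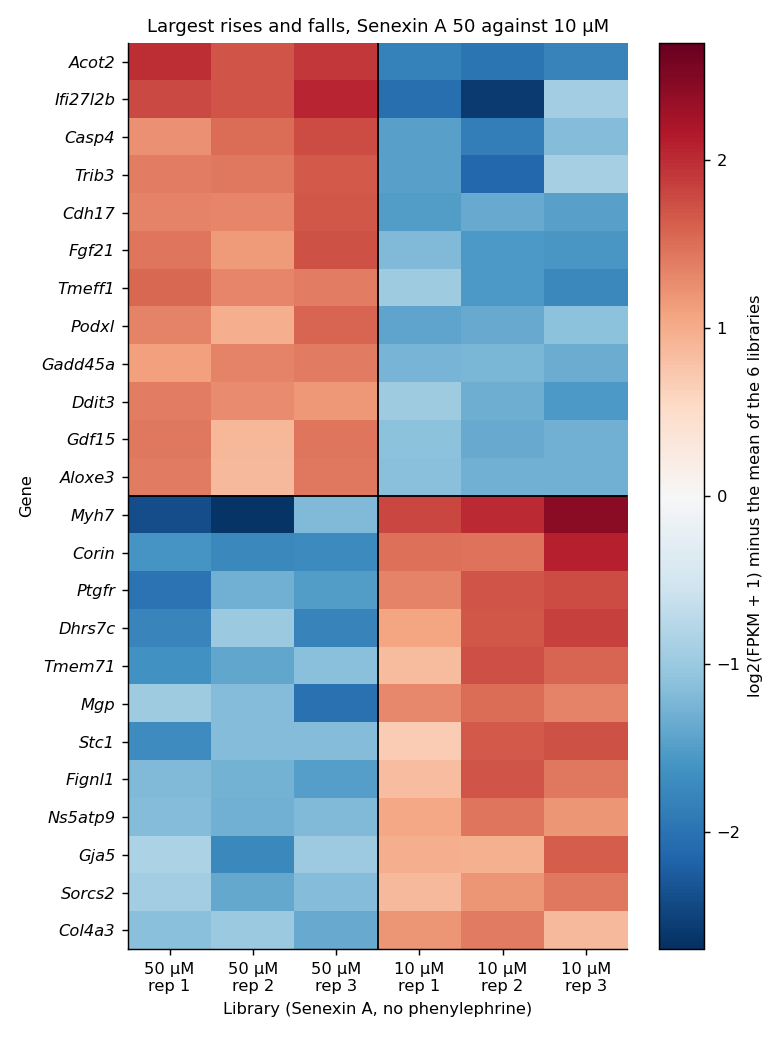
Heat map of the 12 largest rises and 12 largest falls (rows) in the 3 libraries at 50 µM and the 3 at 10 µM (columns), as log2(FPKM + 1) minus the mean of the 6 libraries. Each of the 24 genes separates the 2 doses with no overlap, which the choice of genes required, from Acot2 (3.74 on the log2 scale) at the top of the rises to Myh7 (-4.16) at the top of the falls.

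Values in parentheses after the levels of a gene are the log2 difference of FPKM + 1 between 50 and 10 µM, its standard error and the adjusted p of limma. Apart from a fixed panel, genes were named for a large difference or a small adjusted p in these same data. That groups of such genes did not overlap describes their values and adds no support to the calls.

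The 12 largest rises were led by Acot2, which encodes a mitochondrial acyl-CoA thioesterase (chr6:118076666-118083477 of rn5, as the table gives it). Acot2 had 373, 300.3 and 352 FPKM at 50 µM, against 25.3, 22.8 and 25.9 FPKM at 10 µM, a log2 difference of 3.74 ± 0.17, adjusted p = 7.6e-10. Its near-identical neighbour Acot1 had 2.78, 2.74 and 3.74 FPKM at 50 µM, against 0.394, 0.526 and 0.154 FPKM at 10 µM (1.59 ± 0.14, adjusted p = 3.9e-07), and reads may have been divided between these paralogs. Both were higher in each of the 3 libraries at 50 µM than in any at 10 µM. Casp4, the inflammatory caspase, had 103.6, 127 and 150.4 FPKM at 50 µM, against 15.2, 11.3 and 18.8 FPKM at 10 µM (3.00 ± 0.24, adjusted p = 1.3e-07). Ifi27l2b, of an interferon-inducible family with closely related copies, had 613, 580 and 742 FPKM at 50 µM, against 42.6, 28.5 and 91.9 FPKM at 10 µM (3.70 ± 0.31, adjusted p = 1.8e-07). Neither gene's groups overlapped, and replicate 3 was the highest library of both genes at either dose. Cdh17, a cadherin of gut epithelium, had 7.38, 7.20 and 9.59 FPKM at 50 µM, against 0.168, 0.290 and 0.197 FPKM at 10 µM (2.89 ± 0.18, adjusted p = 1.9e-08). Podxl, which encodes a sialomucin of the cell surface, had 26.7, 20.8 and 31.5 FPKM at 50 µM, against 3.10, 3.29 and 4.11 FPKM at 10 µM (2.59 ± 0.16, adjusted p = 1.8e-08). Both genes stood apart between the doses. Tmeff1, a transmembrane protein with follistatin-like domains, had 42.4, 36.0 and 37.6 FPKM at 50 µM, against 6.68, 4.10 and 3.43 FPKM at 10 µM (2.83 ± 0.21, adjusted p = 8e-08). Aloxe3, an epidermis-type lipoxygenase, had 6.22, 4.05 and 6.42 FPKM at 50 µM, against 0.265, 0.124 and 0.121 FPKM at 10 µM (2.47 ± 0.15, adjusted p = 1.8e-08). Apart from Acot2 and Gadd45a, which also passed the test at 10 µM against Vehicle (0.54 ± 0.17, adjusted p = 0.042 and 0.77 ± 0.12, adjusted p = 0.00052), none of the 12 genes did so. That comparison shares the 10 µM libraries with this one.

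Every tested member of the integrated stress response list was called higher. In this pathway, kinases that sense amino acid shortage, unfolded proteins or other stress phosphorylate the initiation factor eIF2, which favours translation of the transcription factor ATF4. ATF4 and its partner CHOP (Ddit3) then drive genes for amino acid uptake and synthesis, for tRNA charging and for the end of the response. The 21 tested members were higher at 50 µM, with a median of 1.57, against 25.4% higher and a median of -0.018 over all genes tested. Ddit3 had 434, 405 and 379 FPKM at 50 µM, against 85.9, 66.5 and 56.3 FPKM at 10 µM (2.55 ± 0.17, adjusted p = 2.9e-08). Its locus in the table (chr7:70754397-70776456) overlaps Mars, and strand-specific counting was not stated, so its level is uncertain. The pseudokinase Trib3, an inhibitor of AKT and of ATF4 itself, had 123, 127 and 150 FPKM at 50 µM, against 16.4, 10.0 and 24.5 FPKM at 10 µM (2.98 ± 0.41, adjusted p = 2.4e-05). Ppp1r15a (GADD34), which directs dephosphorylation of eIF2 and so ends the response, had 145, 144 and 189 FPKM at 50 µM, against 46.7, 43.4 and 47.2 FPKM at 10 µM (1.77 ± 0.14, adjusted p = 1e-07). Each of these 3 genes was higher in every 50 µM library than in any 10 µM library. Of the secreted stress hormones, Fgf21 had 9.90, 7.82 and 12.1 FPKM at 50 µM, against 0.744, 0.351 and 0.339 FPKM at 10 µM (2.88 ± 0.19, adjusted p = 1.9e-08). Gdf15 had 271, 187 and 273 FPKM at 50 µM, against 45.9, 38.2 and 40.03 FPKM at 10 µM (2.51 ± 0.21, adjusted p = 2.3e-07). Fgf21 was under 1 FPKM in all libraries at 10 µM. The summed level of the 22 listed genes was 3348, 3282 and 3796 FPKM at 50 µM, against 1130, 996.7 and 1206 FPKM at 10 µM. At 10 µM against Vehicle, with the 10 µM libraries in common, 1 of the 21 was called higher and 1 lower, where 16.2% of all genes were called (9.17% higher and 7.01% lower).

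The promoter windows of 2 of these genes hold the composite element to which ATF4 binds with a C/EBP partner, searched as TGATGNAA on either strand in the 250 bases before and 50 after the RefSeq start (GRCr8). They are Fgf21 at chr1:105221327-105221626 and Trib3 at chr3:161275484-161275783, both on the minus strand, shown 5′ to 3′ with the match in capitals (in both the element lies on the other strand).
Fgf21: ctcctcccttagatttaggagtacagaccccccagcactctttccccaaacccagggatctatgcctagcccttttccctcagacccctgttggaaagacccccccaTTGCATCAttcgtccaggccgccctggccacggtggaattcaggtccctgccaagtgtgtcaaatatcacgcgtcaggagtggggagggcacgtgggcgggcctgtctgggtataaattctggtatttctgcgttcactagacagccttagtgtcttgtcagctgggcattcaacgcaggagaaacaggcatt
Trib3: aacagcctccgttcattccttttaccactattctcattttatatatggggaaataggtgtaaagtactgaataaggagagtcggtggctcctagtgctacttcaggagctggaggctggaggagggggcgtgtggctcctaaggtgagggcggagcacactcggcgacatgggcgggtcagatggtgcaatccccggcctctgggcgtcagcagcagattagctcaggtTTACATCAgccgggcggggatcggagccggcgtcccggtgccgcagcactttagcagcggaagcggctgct
The element was found in 5 of the 19 windows of the stress response list that could be matched (26.3%), in 7 of 17 of the tRNA synthetases (41.2%), in 3 of 12 of the amino acid transporters (25.0%) and in 2 of 11 of the serine and one-carbon enzymes (18.2%). Over the 8519 windows matched to tested genes it was found in 1.88%, and over all 27457 windows in 3.82%. A match is a description of letters in the window, and binding was not measured.

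Most genes on the lists for amino acid supply and tRNA charging rose too, while 3 of them fell and 4 did not pass the test. Of the 20 cytosolic aminoacyl-tRNA synthetases tested, 19 were higher and none lower, with a median of 1.10. Over all genes tested 25.4% were higher and 24.9% lower. Sars, which charges serine tRNA, had 347, 367 and 378 FPKM at 50 µM, against 109, 103.7 and 111 FPKM at 10 µM (1.75 ± 0.11, adjusted p = 1.9e-08). Wars, for tryptophan, had 124, 138 and 179 FPKM at 50 µM, against 41.7, 36.2 and 42.2 FPKM at 10 µM (1.83 ± 0.12, adjusted p = 1.9e-08). Gars, for glycine, had 244, 284 and 309 FPKM at 50 µM, against 85.5, 74.1 and 79.5 FPKM at 10 µM (1.79 ± 0.12, adjusted p = 2.9e-08). The groups did not overlap in any of these genes, and the replicates of each lay within a narrow band at 10 µM. Farsb, a subunit of the phenylalanine enzyme, showed a smaller difference (1.15 ± 0.073, adjusted p = 1.9e-08). Among the 14 enzymes of serine, glycine, proline and one-carbon synthesis, 12 were higher and 2 lower (10 and none without 10 µM replicate 3), with a median of 1.11. Phgdh, the first enzyme of serine synthesis, had 154, 169 and 193 FPKM at 50 µM, against 54.7, 46.1 and 60.0 FPKM at 10 µM (1.66 ± 0.15, adjusted p = 3.6e-07). Psph, the last, had 77.7, 89.0 and 79.5 FPKM at 50 µM, against 29.8, 23.6 and 28.1 FPKM at 10 µM (1.56 ± 0.13, adjusted p = 1.6e-07). All libraries at 50 µM stood above those at 10 µM for both. The mitochondrial Shmt2, which passes serine carbon to folate, had 143, 161 and 185 FPKM at 50 µM, against 47.7, 44.3 and 55.6 FPKM at 10 µM (1.70 ± 0.13, adjusted p = 7.8e-08). Pycr1, the last enzyme of proline synthesis, had 45.0, 53.8 and 69.5 FPKM at 50 µM, against 6.64, 10.1 and 12.6 FPKM at 10 µM (2.42 ± 0.20, adjusted p = 2.1e-07). The same held for these enzymes. Of 15 amino acid transporters, 11 were higher and 1 lower, with a median of 1.15. Slc3a2, the shared heavy chain of the system L and cystine exchangers, had 388, 338 and 407 FPKM at 50 µM, against 122, 115 and 133 FPKM at 10 µM (1.61 ± 0.14, adjusted p = 2.5e-07). Slc7a11, the cystine light chain, had 5.37, 6.09 and 7.20 FPKM at 50 µM, against 1.90, 1.91 and 2.45 FPKM at 10 µM (1.22 ± 0.15, adjusted p = 5.6e-06). The glutamine carriers Slc38a3 and Slc38a1 differed by 1.49 ± 0.15, adjusted p = 8.3e-07 and by 1.15 ± 0.12, adjusted p = 1.2e-06.

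The other arms of the unfolded protein response were divided. Of the 21 tested chaperones and sensors of the endoplasmic reticulum, 6 were higher and 7 lower (median -0.068), so that the share called was close to the background in each direction. Atf6, a sensor that becomes a transcription factor, had 40.7, 46.2 and 55.6 FPKM at 50 µM, against 19.0, 17.2 and 22.0 FPKM at 10 µM (1.25 ± 0.10, adjusted p = 1.7e-07). Ern1, which encodes the sensor IRE1, had 13.3, 12.3 and 19.5 FPKM at 50 µM, against 4.69, 5.53 and 5.24 FPKM at 10 µM (1.36 ± 0.16, adjusted p = 4.7e-06). Dnajb9, a co-chaperone that restrains IRE1, rose as well (1.09 ± 0.15, adjusted p = 1.7e-05). Pdia4, a disulfide isomerase, had 53.2, 49.1 and 45.3 FPKM at 50 µM, against 81.4, 87.2 and 94.5 FPKM at 10 µM (-0.82 ± 0.10, adjusted p = 1.1e-05). The 2 sensors rose and the folding enzyme fell without overlap of the groups. Heat shock genes and chaperonins gave 8 higher and 1 lower of 21, where 25.4% of all genes were higher and 24.9% lower. The mitochondrial chaperonin partner Hspe1 had 673, 792 and 679 FPKM at 50 µM, against 399.9, 443 and 374 FPKM at 10 µM (0.82 ± 0.12, adjusted p = 4.7e-05) and the transcription factor Hsf1 rose by less (0.57 ± 0.10, adjusted p = 0.00024). Hspb3, a small heat shock protein of muscle, had 54.3, 83.3 and 56.7 FPKM at 50 µM, against 180.1, 196 and 156 FPKM at 10 µM (-1.46 ± 0.16, adjusted p = 2e-06).

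A list of NRF2 itself and of antioxidant enzymes, among them those that make glutathione, thioredoxin and NADPH, had 25 tested members. Of these 19 were higher and none lower, with a median of 0.57, against 25.4% higher and 24.9% lower over all genes tested. NRF2 (Nfe2l2) itself had 124, 129.5 and 131 FPKM at 50 µM, against 68.5, 66.7 and 70.3 FPKM at 10 µM (0.89 ± 0.057, adjusted p = 1.9e-08). Txnrd1, thioredoxin reductase, had 416, 396 and 397 FPKM at 50 µM, against 86.9, 75.4 and 80.6 FPKM at 10 µM (2.30 ± 0.15, adjusted p = 1.9e-08), with a locus that overlaps Eid3. Srxn1, which restores oxidised peroxiredoxin, had 78.6, 74.0 and 80.8 FPKM at 50 µM, against 24.3, 22.4 and 19.0 FPKM at 10 µM (1.79 ± 0.17, adjusted p = 7.3e-07). In all 3 genes the groups stood clear of each other. Taldo1, an enzyme of the pentose phosphate pathway, rose 2.03-fold in mean FPKM (1.01 ± 0.076, adjusted p = 7.8e-08). At 10 µM against Vehicle, which shares libraries, the same list gave 3 higher and 4 lower. Over all genes 9.17% were higher there and 7.01% lower, and Srxn1 fell (-0.56 ± 0.17, adjusted p = 0.036). Of the 16 glutathione S-transferases, 4 were higher, a share near the 25.4% of all genes, and 2 were lower, a share below their 24.9%. Gstk1, the mitochondrial and peroxisomal form, had 69.9, 70.5 and 78.3 FPKM at 50 µM, against 25.5, 18.2 and 24.5 FPKM at 10 µM (1.65 ± 0.19, adjusted p = 3.3e-06). Among 24 genes of autophagy and muscle protein breakdown, 9 were higher and 2 lower. The autophagy receptor Sqstm1 (p62), itself an NRF2 target, had 776, 664 and 760.2 FPKM at 50 µM, against 247, 226 and 221 FPKM at 10 µM (1.66 ± 0.14, adjusted p = 2.5e-07), and Gabarapl1, of the autophagosome membrane, rose by less (0.70 ± 0.12, adjusted p = 0.00019).

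Of 20 p53 targets, 9 were higher and 2 lower (median 0.20), against 25.4% higher and 24.9% lower over all genes tested. Gadd45a, a growth arrest gene that answers several stresses, had 468, 551 and 572 FPKM at 50 µM, against 90.0, 92.0 and 85.0 FPKM at 10 µM (2.56 ± 0.12, adjusted p = 7.6e-10). Bax, which permeabilises mitochondria in apoptosis, had 210.4, 189 and 199 FPKM at 50 µM, against 106, 128 and 119 FPKM at 10 µM (0.76 ± 0.074, adjusted p = 7.7e-07). Mdm2, the ligase that restrains p53, had 58.4, 60.8 and 54.6 FPKM at 50 µM, against 39.6, 39.5 and 33.4 FPKM at 10 µM (0.62 ± 0.096, adjusted p = 7.2e-05). None of the 3 genes had overlapping groups. Cdkn1a, which encodes the CDK inhibitor p21, had 224, 239 and 251 FPKM at 50 µM, against 135, 165 and 135 FPKM at 10 µM (0.71 ± 0.10, adjusted p = 3.4e-05). Its Vehicle libraries held 204, 217 and 202 FPKM, so that the 10 µM libraries were the lowest of the 3 doses (-0.52 ± 0.10, adjusted p = 0.003).

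**Figure D2:**
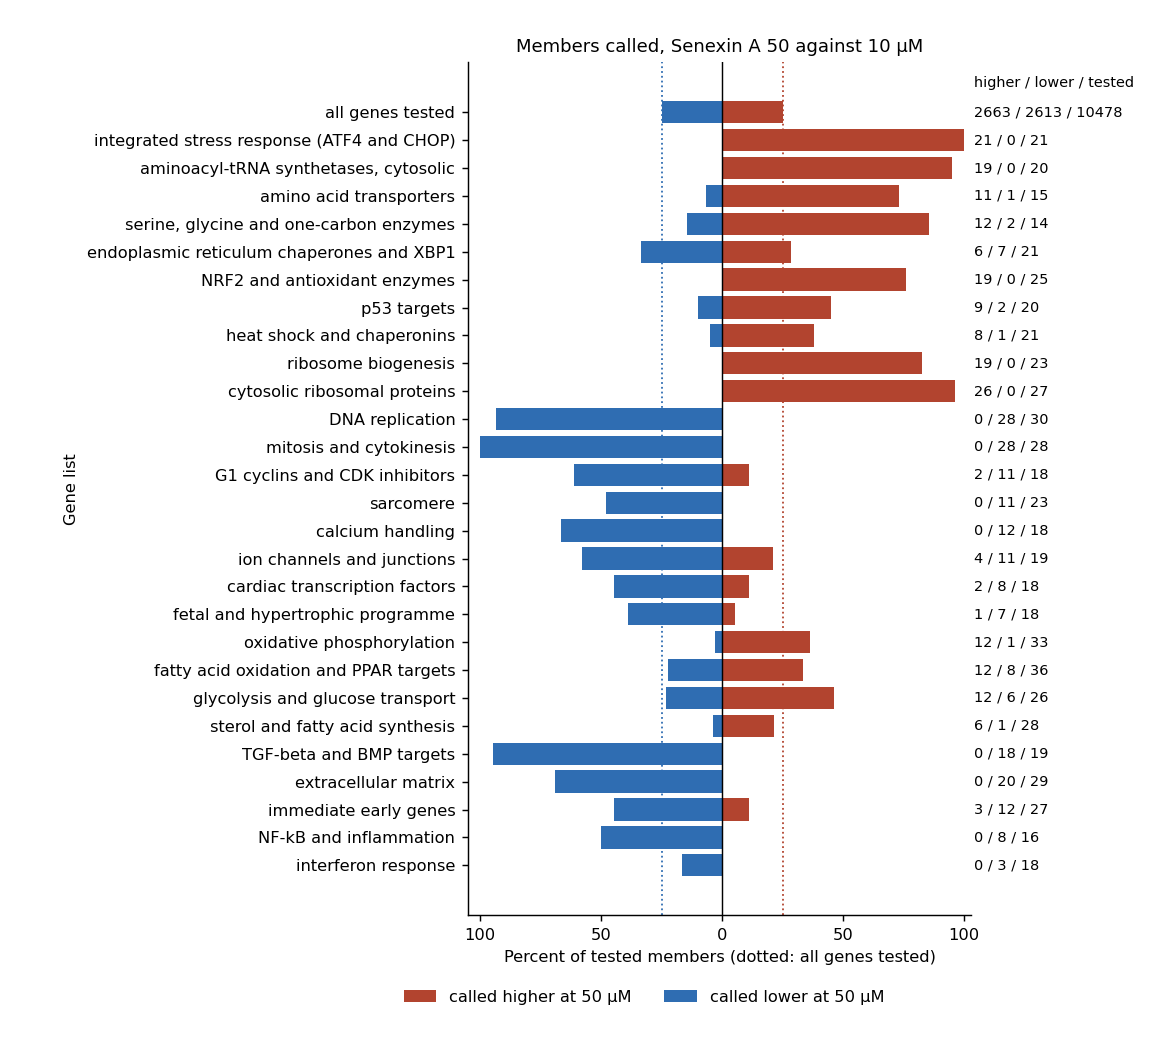
Share of the tested members of each gene list called higher (right, red) or lower (left, blue) at 50 µM than at 10 µM, in percent, with the counts of higher, lower and tested members at the right edge; dotted lines mark the shares over all genes tested. Stress response (21 of 21 higher) and mitosis (28 of 28 lower) lie at the ends, and the chaperones of the endoplasmic reticulum (6 higher, 7 lower) lie near the dotted lines.

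Most genes of ribosome production rose moderately. Ribosome biogenesis factors were higher in 19 of 23 and lower in none (median 0.41), and cytosolic ribosomal proteins were higher in 26 of 27 and lower in none (median 0.46). The rRNA processing factor Wdr12 had 57.6, 53.8 and 52.1 FPKM at 50 µM, against 31.5, 26.6 and 22.8 FPKM at 10 µM (1.0 ± 0.12, adjusted p = 4.5e-06). Its partner Bop1, whose locus overlaps Scx, had 40.9, 36.1 and 48.4 FPKM at 50 µM, against 14.6, 12.2 and 13.4 FPKM at 10 µM (1.57 ± 0.12, adjusted p = 7.8e-08). In both genes the 3 libraries at 50 µM were above those at 10 µM. After quantile normalization 17 ribosomal proteins were called higher, with a median of 0.23. Odc1, the first enzyme of polyamine synthesis, had 167, 179 and 178 FPKM at 50 µM, against 69.8, 59.9 and 60.8 FPKM at 10 µM (1.45 ± 0.079, adjusted p = 6.7e-09), and Mycn, the MYC relative of developing tissue, fell (-1.30 ± 0.16, adjusted p = 1e-05). Both belong to a MYC list of 12 genes with 4 higher and 4 lower, where 25.4% of all genes were higher and 24.9% lower.

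Most cell cycle genes fell, with exceptions mainly among the G1 regulators. All 28 tested mitosis and cytokinesis genes were lower at 50 µM, with a median of -1.60, and 28 of 30 DNA replication genes were lower and none higher, with a median of -1.11, against 24.9% lower over all genes tested. Top2a, the topoisomerase that untangles replicated chromosomes, had 5.62, 5.45 and 3.95 FPKM at 50 µM, against 32.0, 20.9 and 25.0 FPKM at 10 µM (-2.16 ± 0.14, adjusted p = 2.2e-08). Mki67, the marker of cycling cells, had 2.55, 2.16 and 1.66 FPKM at 50 µM, against 13.8, 8.34 and 9.87 FPKM at 10 µM (-1.88 ± 0.16, adjusted p = 1.8e-07). Cdk1, the kinase that starts mitosis, had 24.6, 20.0 and 16.9 FPKM at 50 µM, against 73.9, 61.1 and 60.5 FPKM at 10 µM (-1.63 ± 0.13, adjusted p = 1.2e-07). Values at 10 µM were highest in replicate 1 for each of these genes, and all stood above those at 50 µM. Of the helicase that opens replication origins, Mcm6 had 5.36, 5.20 and 4.40 FPKM at 50 µM, against 28.2, 23.9 and 22.5 FPKM at 10 µM (-2.11 ± 0.16, adjusted p = 8.8e-08) and Mcm5 had 3.66, 2.23 and 2.54 FPKM at 50 µM, against 15.2, 14.6 and 13.1 FPKM at 10 µM (-2.02 ± 0.14, adjusted p = 4.5e-08). Mcm7, whose introns carry microRNAs that are rows of their own, had 8.09, 7.90 and 8.32 FPKM at 50 µM, against 25.4, 23.4 and 24.2 FPKM at 10 µM (-1.48 ± 0.086, adjusted p = 9.7e-09). None of the Mcm genes had overlapping groups. The summed level of the mitosis list was 194, 160.4 and 118.9 FPKM at 50 µM, against 663, 470 and 467 FPKM at 10 µM; Vehicle had 641, 707 and 537 FPKM. At 10 µM against Vehicle, which shares libraries, 3 mitosis genes and 12 replication genes were called lower, against 7.01% of all genes. In bulk RNA, fewer cells of a type and less RNA of a gene per cell cannot be told apart.

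Of 18 regulators of the G1 phase, 11 were lower, 2 were higher, Cdkn1a among them, and 5 did not pass. Ccne2, a cyclin of S phase entry, had 3.01, 3.15 and 2.60 FPKM at 50 µM, against 11.3, 9.496 and 9.83 FPKM at 10 µM (-1.51 ± 0.15, adjusted p = 1.2e-06). E2f1, the transcription factor of that step, had 7.72, 6.06 and 6.79 FPKM at 50 µM, against 20.5, 21.0 and 19.8 FPKM at 10 µM (-1.45 ± 0.16, adjusted p = 2.1e-06). The CDK inhibitor Cdkn2c, which restrains CDK4 and CDK6, was lower too, with 4.30, 3.01 and 3.74 FPKM at 50 µM, against 15.6, 11.6 and 13.6 FPKM at 10 µM (-1.64 ± 0.14, adjusted p = 2.9e-07). All 3 were lower in each library at 50 µM than in any at 10 µM. Among the 12 largest falls, Fignl1, an ATPase of recombination repair, had 2.13, 1.95 and 1.53 FPKM at 50 µM, against 11.6, 22.0 and 18.1 FPKM at 10 µM (-2.63 ± 0.25, adjusted p = 6.9e-07). Ns5atp9, the PCNA-associated factor, whose locus overlaps Trip4, had 3.84, 3.42 and 3.74 FPKM at 50 µM, against 21.2, 28.5 and 23.7 FPKM at 10 µM (-2.44 ± 0.24, adjusted p = 8e-07).

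Promoters of the 2 cell cycle lists are shown for the member of each with the smallest adjusted p whose window holds the motifs searched. Top2a is at chr10:84473044-84473343 and Mcm7 at chr12:22163129-22163428 (GRCr8, minus strand, RefSeq). Capitals mark TTTGAA (the core of the cell cycle homology region) and CCAAT in Top2a, and TTTNNCGC (an E2F element) in Mcm7, on either strand.
Top2a: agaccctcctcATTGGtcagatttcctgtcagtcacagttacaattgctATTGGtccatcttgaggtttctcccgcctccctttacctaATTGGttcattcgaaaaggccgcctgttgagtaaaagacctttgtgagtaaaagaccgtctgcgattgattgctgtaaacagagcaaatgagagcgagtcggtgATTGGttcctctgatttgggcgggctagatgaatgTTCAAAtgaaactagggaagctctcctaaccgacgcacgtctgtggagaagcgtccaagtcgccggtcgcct
Mcm7: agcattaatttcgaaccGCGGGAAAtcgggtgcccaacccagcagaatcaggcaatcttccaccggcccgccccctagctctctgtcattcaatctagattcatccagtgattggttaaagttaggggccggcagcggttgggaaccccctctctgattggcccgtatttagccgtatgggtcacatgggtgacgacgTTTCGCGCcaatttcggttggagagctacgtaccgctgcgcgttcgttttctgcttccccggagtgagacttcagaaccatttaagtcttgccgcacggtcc
In the 23 matched windows of the mitosis list, TTTGAA was found in 18 (78.3%), against 11.1% of the windows of tested genes, and CCAAT in 17 (73.9%), against 37.9%. Among the 25 matched windows of the replication list, TTTNNCGC was found in 13 (52.0%), against 8.86%. Over all 27457 windows the shares were 18.1%, 37.7% and 5.19%. The matches of the 2 motifs in the Top2a window do not overlap. A match describes letters, and no factor's binding was measured.

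**Figure D3:**
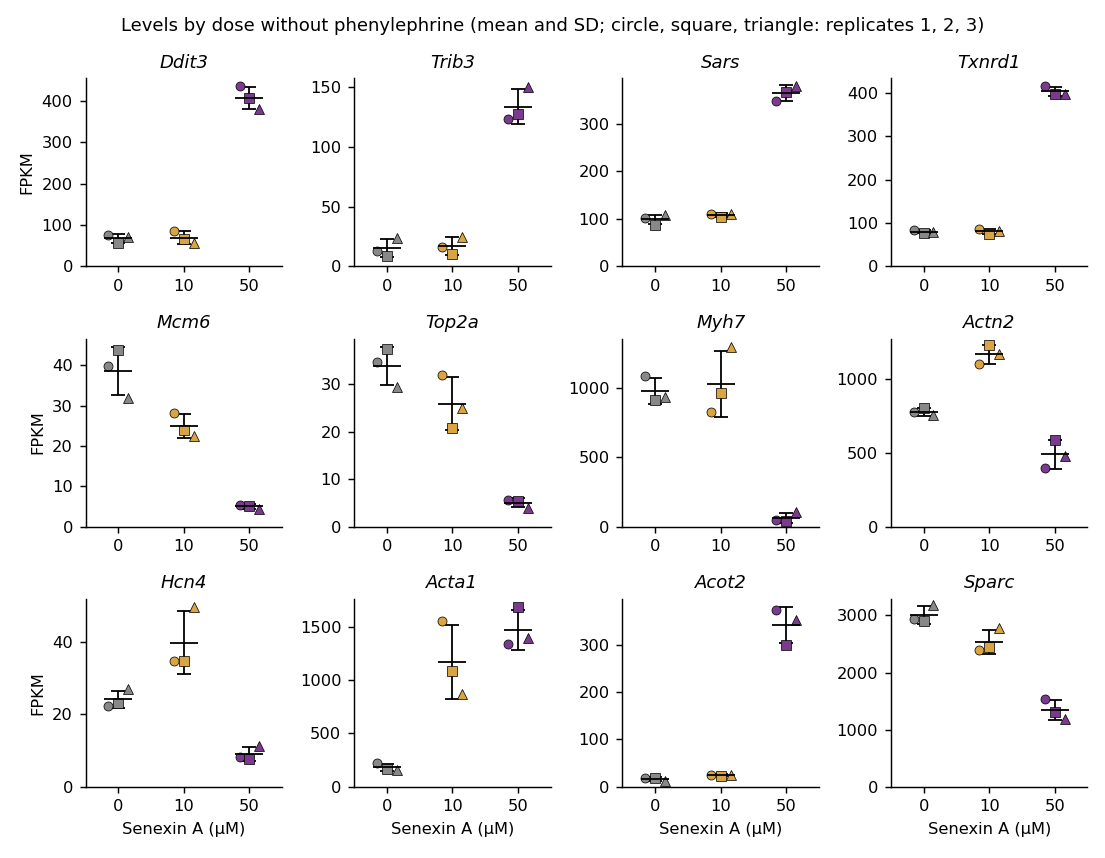
FPKM of 12 genes at 0 (Vehicle), 10 and 50 µM Senexin A without phenylephrine, with 1 symbol per library and the mean and SD of 3 libraries. The first row shows stress genes with little change up to 10 µM, and Mcm6, Top2a, Myh7, Actn2, Hcn4 and Sparc are lower at 50 µM; Actn2, Hcn4 and Acta1 are higher at 10 µM than in Vehicle.

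Part of the contractile and most of the calcium handling genes fell. Of 23 tested sarcomere genes 11 were lower and none higher (median -0.68). Of 18 calcium handling genes 12 were lower and none higher (median -0.61). Over all genes tested 24.9% were lower and 25.4% higher. Myh7, the slow myosin heavy chain, was the largest fall of all named genes, with 44.4, 37.1 and 104.3 FPKM at 50 µM, against 831, 967 and 1294 FPKM at 10 µM (-4.16 ± 0.50, adjusted p = 5.7e-06). The highest of its 50 µM libraries, replicate 3, was well under the lowest at 10 µM. Its near-identical neighbour Myh6 had 819, 1341 and 776 FPKM at 50 µM, against 1937, 1596 and 775 FPKM at 10 µM (-0.50 ± 0.69, adjusted p = 0.57) with overlapping groups; reads may have been divided between these paralogs, so both levels are uncertain. Actn2, which crosslinks actin at the Z-disc, had 399, 588 and 476 FPKM at 50 µM, against 1101, 1228 and 1170 FPKM at 10 µM (-1.27 ± 0.10, adjusted p = 1.6e-07). Myoz2, a Z-disc partner of calcineurin, had 145, 195 and 169 FPKM at 50 µM, against 363, 347 and 307 FPKM at 10 µM (-1.0 ± 0.1, adjusted p = 9.9e-07). Myom1, of the M-band, had 57.1, 85.0 and 68.2 FPKM at 50 µM, against 139, 130 and 112 FPKM at 10 µM (-0.86 ± 0.12, adjusted p = 3.3e-05). Among the 3, replicate 2 was the highest library at 50 µM and stayed under every 10 µM value. Tnni1, the slow troponin I of fetal muscle, had 138, 156 and 314 FPKM at 50 µM, against 431, 736 and 1084 FPKM at 10 µM (-1.88 ± 0.35, adjusted p = 0.00033). At 10 µM against Vehicle, with libraries in common, 12 sarcomere genes were called higher and none lower, and at 50 µM against Vehicle 6 were higher and 8 lower. The 10 µM comparison called 9.17% of all genes higher and 7.01% lower. The last comparison called 60.7% of all genes, 30.5% higher and 30.2% lower. Actn2 is an example: Vehicle had 772, 801 and 752 FPKM, under each 10 µM value and above each 50 µM value.

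Of the calcium release complex, Trdn (triadin) had 12.1, 14.0 and 10.4 FPKM at 50 µM, against 31.2, 28.6 and 26.9 FPKM at 10 µM (-1.19 ± 0.12, adjusted p = 1.2e-06) and Hrc, the histidine-rich calcium buffer of the reticulum, had 18.1, 25.4 and 18.5 FPKM at 50 µM, against 64.9, 50.7 and 51.0 FPKM at 10 µM (-1.39 ± 0.15, adjusted p = 1.8e-06). The sodium-calcium exchanger Slc8a1 had 122, 168 and 148 FPKM at 50 µM, against 233, 283 and 255 FPKM at 10 µM (-0.81 ± 0.096, adjusted p = 4.9e-06), and the T-type calcium channel gene Cacna1g had 16.7, 22.7 and 28.6 FPKM at 50 µM, against 61.3, 69.8 and 62.0 FPKM at 10 µM (-1.50 ± 0.18, adjusted p = 7.1e-06). In these 4 genes every 50 µM library was below every 10 µM library. The pump Atp2a2 (SERCA2) had 934, 1436 and 916 FPKM at 50 µM, against 1585, 1629 and 1267 FPKM at 10 µM and did not pass the test (-0.47 ± 0.19, adjusted p = 0.052), its groups overlapping through 50 µM replicate 2. Its adjusted p fell to 0.0074 without that library and 0.0359 without 10 µM replicate 3; with the replicate number as a block it was 0.0076. With a filter of 5 FPKM, median-ratio scaling or quantile normalization it was 0.0473, 0.049 and 0.0051. Dhrs7c, a reductase of the sarcoplasmic reticulum, had 9.82, 17.5 and 9.67 FPKM at 50 µM, against 77.4, 118 and 134 FPKM at 10 µM (-3.07 ± 0.33, adjusted p = 2.3e-06) and was higher at 10 µM than in Vehicle (1.77 ± 0.33, adjusted p = 0.0021).

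Of 19 ion channel and junction genes, 11 were lower and 4 higher, against 24.9% lower and 25.4% higher over all genes tested. Hcn4, the pacemaker channel, had 8.33, 7.72 and 11.3 FPKM at 50 µM, against 34.7, 34.8 and 49.8 FPKM at 10 µM (-2.01 ± 0.20, adjusted p = 1.1e-06). Vehicle had 22.5, 23.2 and 26.9 FPKM. Gja5, which encodes connexin 40 of atrial and conducting cells, had 6.46, 3.07 and 5.85 FPKM at 50 µM, against 25.8, 25.5 and 41.0 FPKM at 10 µM (-2.39 ± 0.27, adjusted p = 3.1e-06). Gjc1 (connexin 45) had 12.7, 10.1 and 10.2 FPKM at 50 µM, against 25.3, 20.3 and 29.1 FPKM at 10 µM (-1.11 ± 0.15, adjusted p = 2.6e-05). The potassium channel subunit Kcnj11 showed a smaller fall (-0.71 ± 0.087, adjusted p = 7.5e-06). None of these 4 genes had overlapping groups. Of 18 cardiac transcription factors, 8 were lower and 2 higher, against the same shares of all genes. Irx4, which marks the ventricle, had 16.1, 23.6 and 13.7 FPKM at 50 µM, against 52.4, 87.9 and 64.3 FPKM at 10 µM (-1.88 ± 0.20, adjusted p = 2e-06). Tbx20, a T-box factor of heart development, had 40.8, 63.1 and 47.6 FPKM at 50 µM, against 112, 146 and 106 FPKM at 10 µM (-1.26 ± 0.17, adjusted p = 2.2e-05). Gata6, of the GATA family that drives heart genes, had 33.3, 36.1 and 38.3 FPKM at 50 µM, against 53.1, 69.2 and 65.2 FPKM at 10 µM (-0.78 ± 0.093, adjusted p = 6.1e-06). Myocd, the coactivator of SRF in muscle, was lower as well (-1.06 ± 0.20, adjusted p = 0.00032). For Irx4, Tbx20 and Gata6 every 50 µM value lay below every 10 µM value.

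The hormone and hypertrophy panel behaved unevenly. Nppa, which encodes the atrial natriuretic peptide, had 15580, 13800 and 12170 FPKM at 50 µM, against 15430, 10720 and 5639 FPKM at 10 µM (0.50 ± 0.45, adjusted p = 0.38). Nppb, the B-type peptide, had 1254, 1838 and 1147 FPKM at 50 µM, against 2290, 1552 and 989 FPKM at 10 µM (-0.14 ± 0.33, adjusted p = 0.74). Their groups overlapped, and replicate 1 was the highest at 10 µM for both. Corin, the membrane protease that activates the atrial peptide, was among the largest falls, with 1.09, 0.882 and 0.923 FPKM at 50 µM, against 16.8, 16.4 and 26.0 FPKM at 10 µM (-3.37 ± 0.23, adjusted p = 3.7e-08). Acta1, the skeletal actin of the fetal programme, had 1333, 1683 and 1396 FPKM at 50 µM, against 1549, 1088 and 870 FPKM at 10 µM (0.36 ± 0.18, adjusted p = 0.099). Vehicle had 219, 169.8 and 155 FPKM. Ankrd1, a muscle ankyrin repeat protein of the stretch response, had 2511, 3871 and 2411 FPKM at 50 µM, against 4243, 4373 and 3038 FPKM at 10 µM (-0.42 ± 0.17, adjusted p = 0.055). With the replicate block the adjusted p was 0.0274 for Acta1 and 0.0083 for Ankrd1. For Acta1 it was 0.0072 without 10 µM replicate 1, and for Ankrd1 0.0137 without 10 µM replicate 3 and 0.0039 without 50 µM replicate 2. With the same filter and scalings Ankrd1 had 0.0462, 0.0492 and 0.001. The fetal and hypertrophic list had 7 lower and 1 higher of 18, where 24.9% of all genes were lower and 25.4% higher.

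Of the kinase module to which the drug's targets belong, 1 of 6 tested genes was called. Cdk8 had 12.6, 13.9 and 12.03 FPKM at 50 µM, against 14.0, 13.7 and 12.3 FPKM at 10 µM (-0.047 ± 0.11, adjusted p = 0.74). Cdk19 had 7.57, 4.34 and 7.07 FPKM at 50 µM, against 6.92, 6.25 and 8.41 FPKM at 10 µM (-0.18 ± 0.17, adjusted p = 0.39). Ccnc, which encodes cyclin C, had 19.0, 23.4 and 20.2 FPKM at 50 µM, against 16.8, 17.6 and 16.1 FPKM at 10 µM (0.29 ± 0.091, adjusted p = 0.014), a call lost without 10 µM replicate 3 (0.0538) and without 50 µM replicate 2 (0.0817). Med12 and Med13 differed by -0.07 ± 0.081, adjusted p = 0.49 and by -0.21 ± 0.11, adjusted p = 0.12, and Med13 passed without 50 µM replicate 3 (0.0248). Of 25 core Mediator subunits, 6 were higher and 3 lower, with 0 to 2 lower when any 1 library was left out; the higher share was near the 25.4% of all genes and the lower share below their 24.9%. Med20, of the head module, had 39.6, 39.3 and 38.2 FPKM at 50 µM, against 28.6, 29.4 and 26.0 FPKM at 10 µM (0.47 ± 0.07, adjusted p = 4.7e-05). Hexim1, which holds the elongation kinase CDK9 inactive, fell (-0.48 ± 0.084, adjusted p = 0.0002), as did the CDK9 partner Ccnt1 (-0.47 ± 0.11, adjusted p = 0.0018). Of the 11 transcriptional kinases and partners, 3 were lower and 2 higher. The lower share was near the 24.9% of all genes and the higher share below their 25.4%. With any 1 library left out, 2 to 3 were lower and 0 to 2 higher.

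Most matrix genes and TGF-beta targets fell. Of 29 tested matrix genes 20 were lower and none higher (median -0.90). Of 19 TGF-beta and BMP targets 18 were lower and none higher (median -0.79). Over all genes tested 24.9% were lower and 25.4% higher. Leaving out 1 library gave 14 to 23 matrix genes and 13 to 17 TGF-beta and BMP targets lower. Both counts were smallest without 10 µM replicate 3. Sparc, a collagen-binding glycoprotein, had 1530, 1316 and 1189 FPKM at 50 µM, against 2393, 2455 and 2780 FPKM at 10 µM (-0.92 ± 0.11, adjusted p = 6.4e-06). Tnc, tenascin C, had 13.2, 12.8 and 9.501 FPKM at 50 µM, against 48.6, 47.3 and 60.8 FPKM at 10 µM (-2.05 ± 0.20, adjusted p = 6.8e-07). Both were lower in each 50 µM library than in any at 10 µM. Timp3, an inhibitor of metalloproteinases whose locus overlaps Syn3, had 22.2, 18.7 and 17.5 FPKM at 50 µM, against 82.6, 68.3 and 78.3 FPKM at 10 µM (-1.92 ± 0.13, adjusted p = 3.6e-08). Mgp, the matrix Gla protein that prevents calcification, had 95.5, 82.7 and 45.3 FPKM at 50 µM, against 462, 536 and 477 FPKM at 10 µM (-2.77 ± 0.23, adjusted p = 1.5e-07). The groups of each stood apart, with 50 µM replicate 3 the lowest library. Of the TGF-beta list, Tgfbi, a matrix protein induced by TGF-beta, had 1.94, 2.52 and 2.71 FPKM at 50 µM, against 8.85, 11.1 and 10.9 FPKM at 10 µM (-1.74 ± 0.16, adjusted p = 5.1e-07), and its groups did not overlap. The ligands Tgfb1 and Tgfb2 differed by -0.79 ± 0.13, adjusted p = 0.00012 and by -1.03 ± 0.17, adjusted p = 0.0001. Of 11 WNT pathway genes, 6 were lower and none higher, among them the receptor Fzd1 (-1.06 ± 0.17, adjusted p = 8.1e-05) and the secreted inhibitor Sfrp1 (-1.19 ± 0.20, adjusted p = 0.00018). Of 13 IGF genes 7 were lower and 2 higher; Igf2, the fetal growth factor whose locus holds Mir483, had 2.57, 2.41 and 1.92 FPKM at 50 µM, against 8.54, 9.56 and 12.1 FPKM at 10 µM (-1.74 ± 0.25, adjusted p = 3e-05), while Irs2, an adaptor of the insulin receptor, rose (0.87 ± 0.22, adjusted p = 0.0031). Ptgfr, the receptor of prostaglandin F2alpha, had 8.83, 14.8 and 12.6 FPKM at 50 µM, against 97.4, 126 and 132 FPKM at 10 µM (-3.20 ± 0.19, adjusted p = 1e-08). Col4a3, a basement membrane collagen, had 1.16, 1.34 and 0.836 FPKM at 50 µM, against 9.68, 11.4 and 7.61 FPKM at 10 µM (-2.31 ± 0.16, adjusted p = 3.5e-08).

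Part of the markers of fibroblasts, smooth muscle and pericytes were lower too. The fibroblast markers include genes of matrix proteins (Col1a1, Col1a2, Col3a1, Dcn, Lum and Postn). Their counts and sum are therefore not separate from the matrix result. Without the replicate block, the shares of macrophage, epicardial and Schwann cell markers called lower were near or below the 24.9% of all genes. The summed level of 12 fibroblast markers ran from 2342 to 2483 FPKM at 50 µM, against 3390 to 4583 FPKM at 10 µM, and 5 of the 11 tested were lower. The count was 9 with the replicate block and 3 without 10 µM replicate 1 or 3 or without any single 50 µM library. Ddr2, a collagen receptor of fibroblasts, had 14.0, 12.8 and 11.0 FPKM at 50 µM, against 25.7, 19.3 and 23.0 FPKM at 10 µM (-0.80 ± 0.16, adjusted p = 0.00074). Of 10 smooth muscle and pericyte markers 6 were lower, with sums of 2378 to 3385 FPKM at 50 µM, against 4341 to 5593 FPKM at 10 µM, Acta2 (-1.27 ± 0.18, adjusted p = 2.9e-05) and Cnn1 (-1.57 ± 0.27, adjusted p = 0.00019) among them. Of 12 markers of macrophages and leukocytes, 8 were tested and none passed (3 lower with the block); Lyz2, of the lysozyme of macrophages, had 65.0, 156 and 22.4 FPKM at 50 µM, against 73.3, 355 and 64.3 FPKM at 10 µM (-0.95 ± 1.01, adjusted p = 0.46), the block giving an adjusted p of 0.0145. Replicate 2 was the highest in Lyz2 at either dose. Endothelial markers summed to 15.2 to 23.3 FPKM at 50 µM and 25.9 to 35.4 FPKM at 10 µM, with 2 of 6 lower (4 with the block, 1 without 10 µM replicate 3 or 50 µM replicate 3), and up to 8 of these 11 markers were under 1 FPKM in a 50 µM library, against 7 in a 10 µM library. Of 6 epicardial markers 1 was lower (2 with the block), as was 1 of 4 Schwann cell markers, and no erythroid marker reached the filter. The summed level of the 10 cardiomyocyte markers overlapped, at 39910 to 62080 FPKM at 50 µM and 55140 to 71200 FPKM at 10 µM; 4 were lower, 8 after quantile normalization, 7 with the block and 2 without 10 µM replicate 2 or without 50 µM replicate 1. The part of cell composition in the matrix, TGF-beta and cell cycle results was not tested.

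**Figure D4:**
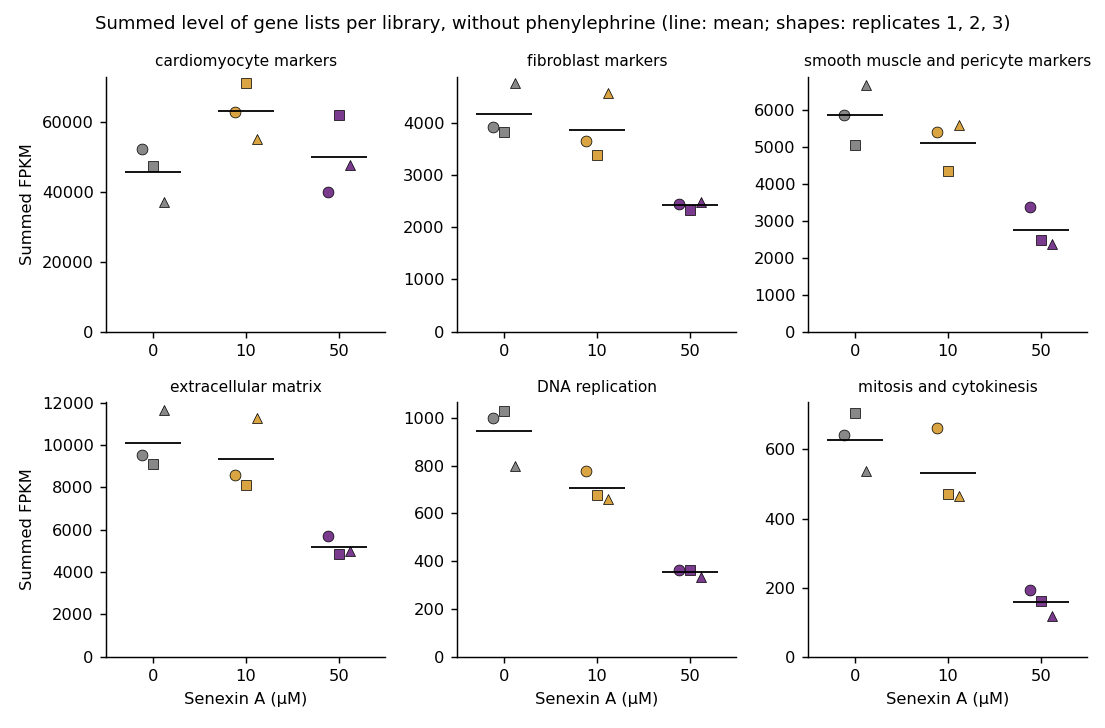
Summed FPKM of 3 marker lists (top) and of the matrix, DNA replication and mitosis lists (bottom) in each library at 0 (Vehicle), 10 and 50 µM Senexin A without phenylephrine; lines are means of 3 libraries. The fibroblast, smooth muscle, matrix, replication and mitosis sums of the 50 µM libraries lie below those of the 10 µM libraries, while the cardiomyocyte sums overlap.

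Of 27 immediate early genes, which respond within minutes of a stimulus, 12 were lower and 3 higher. The background over all genes tested was 24.9% lower and 25.4% higher. Dusp1, a phosphatase that ends MAP kinase signals, had 21.2, 20.5 and 14.5 FPKM at 50 µM, against 54.4, 53.1 and 62.8 FPKM at 10 µM (-1.56 ± 0.14, adjusted p = 3.6e-07). Dusp5, which acts on ERK, had 7.05, 4.18 and 6.58 FPKM at 50 µM, against 18.8, 15.4 and 23.9 FPKM at 10 µM (-1.56 ± 0.27, adjusted p = 0.00016). Jun, a subunit of the AP-1 transcription factor, had 17.8, 17.0 and 18.1 FPKM at 50 µM, against 32.1, 30.6 and 32.9 FPKM at 10 µM (-0.82 ± 0.14, adjusted p = 0.00015). In these 3 genes the doses did not overlap. Of 16 NF-kB and inflammation genes 8 were lower and none higher, a count of 5 without 50 µM replicate 3. Nfkbia, the inhibitor that NF-kB induces, had 7.32, 7.505 and 7.13 FPKM at 50 µM, against 13.5, 15.9 and 15.1 FPKM at 10 µM (-0.93 ± 0.11, adjusted p = 4e-06). Il1rl1, the interleukin 33 receptor, had 1.17, 2.04 and 0.920 FPKM at 50 µM, against 9.35, 8.29 and 8.86 FPKM at 10 µM (-2.07 ± 0.18, adjusted p = 2.3e-07). Interferon response genes were called lower in 3 of 18 (6 with the block), below the background. Vegfa, the endothelial growth factor, rose, with 226, 213 and 212 FPKM at 50 µM, against 118, 124 and 105 FPKM at 10 µM (0.91 ± 0.11, adjusted p = 4.7e-06), and its receptor gene Flt1 fell (-1.0 ± 0.17, adjusted p = 0.00019). Of 8 aryl hydrocarbon receptor targets 3 were lower (5 with the block, 1 after quantile normalization). Cyp1b1 had 17.3, 12.8 and 8.27 FPKM at 50 µM, against 21.5, 18.5 and 19.7 FPKM at 10 µM (-0.65 ± 0.18, adjusted p = 0.0062).

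Lists of energy metabolism held calls in both directions, as did all genes tested (25.4% higher and 24.9% lower). Of 33 oxidative phosphorylation genes 12 were higher and 1 lower (median 0.24). The higher share was not far above the 25.4% of all genes, and the lower share was well below their 24.9%. After quantile normalization the counts were 9 higher and 5 lower (median 0.073); with the block 18 were higher and 3 lower, and 3 were lower without 50 µM replicate 2. Cox6a2, the heart and muscle form of a cytochrome oxidase subunit, had 4167, 4965 and 4553 FPKM at 50 µM, against 2895, 2765 and 2185 FPKM at 10 µM (0.81 ± 0.17, adjusted p = 0.00079). Sdhb, the iron-sulfur subunit of succinate dehydrogenase, had 506, 581 and 517 FPKM at 50 µM, against 371, 373 and 305 FPKM at 10 µM (0.62 ± 0.14, adjusted p = 0.0017). Against Vehicle the same list had 30 members higher at 10 µM and 31 at 50 µM, in comparisons that share libraries with this one. The share of all genes called higher differed between them, at 9.17% for 10 µM and 30.5% for 50 µM. Of 22 genes of the tricarboxylic acid cycle and of pyruvate dehydrogenase and its kinases, 5 were higher and 2 lower, shares below those of all genes. Without 10 µM replicate 3, or 50 µM replicate 2 or 3, 2 were higher. Without 50 µM replicate 2, 5 were lower, and after quantile normalization 6 were. Of 36 genes of fatty acid oxidation and PPAR targets 12 were higher and 8 lower, shares near those of all genes. Hadhb, of the trifunctional enzyme of mitochondrial beta-oxidation, had 1068, 1172 and 1148 FPKM at 50 µM, against 476, 451 and 419 FPKM at 10 µM (1.33 ± 0.098, adjusted p = 6.4e-08). Of 26 genes of glycolysis and glucose transport 12 were higher and 6 lower, with 6 higher without 10 µM replicate 3. Pfkm, the muscle phosphofructokinase, had 57.4, 81.2 and 71.8 FPKM at 50 µM, against 124, 136 and 117 FPKM at 10 µM (-0.84 ± 0.10, adjusted p = 8.7e-06). Aldoa, the muscle aldolase, had 1905, 1854 and 1973 FPKM at 50 µM, against 1230, 1152 and 1043 FPKM at 10 µM (0.75 ± 0.091, adjusted p = 6.9e-06). The count of sterol and fatty acid synthesis genes depended on single libraries. Of 28, 6 were higher, but 17 without 50 µM replicate 1, 3 without 10 µM replicate 2 and 1 without 50 µM replicate 3. Pmvk, a kinase of the mevalonate pathway, had 38.2, 48.1 and 64.5 FPKM at 50 µM, against 38.4, 32.6 and 30.7 FPKM at 10 µM (0.53 ± 0.15, adjusted p = 0.0067), and its groups overlapped through replicate 1 at 50 µM.

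The same dose step was also taken in the presence of phenylephrine, in 6 other libraries. There 4320 genes were called (41.2%), 21.3% of those tested higher and 19.9% lower. Of the calls without phenylephrine, 3256 were called in the same direction with it, which is 61.7% of the calls without and 75.4% of those with phenylephrine; 38 were called in opposite directions. The 2 steps share no library. Across the 10478 genes, which are not independent replicates, the 2 steps correlated with Pearson r = 0.815 and Spearman rho = 0.781, and the SD of the log2 step was 0.561 without and 0.497 with phenylephrine. The stress response list had 21 of 21 higher in both settings, and the mitosis list 28 and 27 of 28 lower. Other lists had different counts in the 2 settings. Without phenylephrine 18 of 19 TGF-beta and BMP targets and 20 of 29 matrix genes were lower, and with it 7 and 11. The oxidative phosphorylation list had 12 higher and 1 lower without phenylephrine, and none higher and 6 lower with it. The list of the tricarboxylic acid cycle and pyruvate dehydrogenase had 5 higher and 2 lower without it, and none higher and 13 lower with it. For glycolysis and glucose transport the counts were 12 higher and 6 lower without it, and 3 higher and 12 lower with it. In the test of the difference itself, no gene of the TGF-beta, matrix or oxidative phosphorylation lists was called. Of the tricarboxylic acid cycle and pyruvate dehydrogenase list 3 were, with the kinase gene Pdk2 among them. Ddit3 changed by 2.43 ± 0.17, adjusted p = 8.9e-08 with phenylephrine, Top2a by -1.84 ± 0.14, adjusted p = 1.6e-07 and Myh7 by -3.44 ± 0.50, adjusted p = 4.7e-05, and none of the 3 differences between the steps passed the test (0.11 ± 0.24, adjusted p = 0.85; -0.32 ± 0.20, adjusted p = 0.43; -0.72 ± 0.70, adjusted p = 0.63).

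A difference between the 2 steps was called for 313 genes (2.99%), 218 with a more positive step without phenylephrine (2.08%) and 95 with a more negative one (0.907%). With the replicate block 1147 were called. Leaving out 1 library gave 121 to 460. The count fell to 121 without 10 µM replicate 3, 150 without 10 µM replicate 2 and 143 without 50 µM replicate 3. With phenylephrine it fell to 133 and 140 without 50 µM replicates 1 and 3, and to 135 and 156 without 10 µM replicates 1 and 2. Among genes averaging 5 FPKM or more in 1 of the 4 groups, the largest positive difference was that of Acta1, with 1333, 1683 and 1396 FPKM at 50 µM, against 1549, 1088 and 870 FPKM at 10 µM. It had 1534, 1627 and 1309 FPKM at 50 µM with phenylephrine, against 6075, 5009 and 5195 FPKM at 10 µM with phenylephrine. Its step was -1.86 ± 0.18, adjusted p = 8.6e-07 with phenylephrine, and the difference between the steps was 2.23 ± 0.25, adjusted p = 0.00048. Without phenylephrine the doses overlapped, and with it every 50 µM library was below every 10 µM library. Csrp2, a LIM protein of muscle, had 94.02, 115 and 86.0 FPKM at 50 µM, against 228, 334 and 286 FPKM at 10 µM. It had 461, 613 and 479 FPKM at 50 µM with phenylephrine, against 375, 506 and 357 FPKM at 10 µM with phenylephrine, a difference of -1.84 ± 0.29, adjusted p = 0.0058. It fell without phenylephrine (-1.51 ± 0.20, adjusted p = 2e-05), and its groups overlapped with it. Nap1l5, whose locus overlaps Herc3, had 3.29, 4.06 and 4.12 FPKM at 50 µM, against 4.23, 4.57 and 4.72 FPKM at 10 µM. It had 45.2, 48.4 and 40.6 FPKM at 50 µM with phenylephrine, against 10.2, 12.4 and 11.3 FPKM at 10 µM with phenylephrine (-2.09 ± 0.17, adjusted p = 2e-05). The step of Nap1l5 did not pass the test without phenylephrine (-0.19 ± 0.12, adjusted p = 0.2) and rose with it (1.90 ± 0.12, adjusted p = 4.6e-08). Tceal7, of a family of elongation factor-like proteins, had 0.947, 1.45 and 1.56 FPKM at 50 µM, against 3.21, 2.16 and 1.83 FPKM at 10 µM. It had 0.638, 0.672 and 1.21 FPKM at 50 µM with phenylephrine, against 6.54, 9.40 and 18.3 FPKM at 10 µM with phenylephrine (2.11 ± 0.42, adjusted p = 0.015). Its step did not pass without phenylephrine (-0.54 ± 0.30, adjusted p = 0.14) and fell with it (-2.65 ± 0.30, adjusted p = 4.3e-06). The rise of Acot2 was larger without phenylephrine (1.29 ± 0.24, adjusted p = 0.012), and Pdk2, a kinase that restrains pyruvate dehydrogenase, rose by 0.50 ± 0.069, adjusted p = 2.2e-05 without phenylephrine. With it, its difference was -0.15 ± 0.069, adjusted p = 0.1, and the steps differed by 0.65 ± 0.098, adjusted p = 0.0058. The fall of Col4a3 was larger without phenylephrine (-1.43 ± 0.23, adjusted p = 0.0059). Among the lists, 7 of 36 genes of fatty acid oxidation and PPAR targets were called with a more positive step without phenylephrine. So were 6 of 26 genes of glycolysis and glucose transport, and none of either list had a more negative one.

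**Figure D5:**
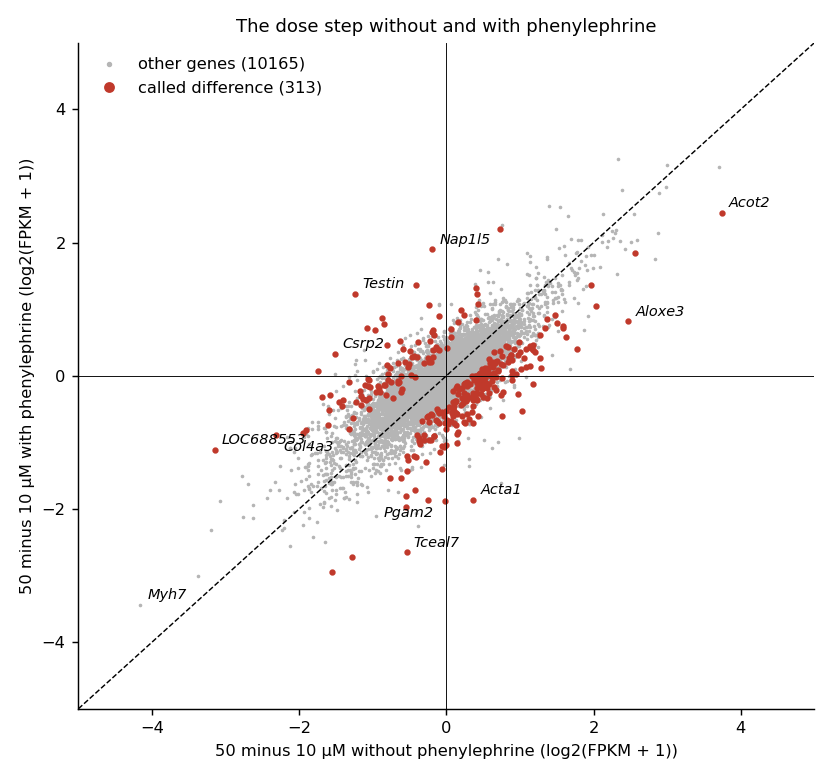
The 50 minus 10 µM difference of log2(FPKM + 1) without phenylephrine (x axis) and with it (y axis) for the 10478 genes tested; red points are the 313 genes whose steps differed (limma, adjusted p under 0.05), and the dashed line marks equal steps. Most genes follow the diagonal, and Acta1, Tceal7 and Pgam2 lie far below it while Nap1l5 and Testin lie far above it.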

How the data were processed

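Polyadenylated RNA of 18 libraries (6 groups of 3) was prepared with the TruSeq RNA V2 kit and extracted in Trizol, per the labels. The authors deposited 1 table of FPKM, normalized by gene length and mapped fragments; Bowtie2, Cufflinks and the rn5 build are named in the submitters' processing notes, and their versions, the annotation and the strand setting are not given in the sources used here. Deposited FPKM have a floor of 0.01, with 2766 rows at it in all libraries, and 1875 rows share a locus with another row (1000 of those tested). Coordinates are the table's own.

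log2(FPKM + 1) was fitted with limma 3.58.1 (R 4.3.3) as 6 group means with a variance trend (12 residual degrees of freedom) in 10478 rows that reached 1 FPKM in 3 or more libraries, with Benjamini-Hochberg adjustment per comparison. Values after ± are standard errors (median 0.118) of log2 differences, which understate changes of low genes; fold values are ratios of mean FPKM. A check of the fit on simulated data drew independent noise for each library and changed few genes. It therefore does not bear on the pairing of replicates or on calls as many as these. Depth in reads is unknown, so no counting interval was computed.

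Named genes were the 12 largest called rises and falls (mean of at least 5 FPKM, groups not overlapping), up to 4 called members of each list by smallest adjusted p, a panel of 12 genes, and the 4 largest differences of the dose steps each way; a few genes so chosen are not reported here. The 47 lists (943 entries, 900 of them in the table) and the comparisons were chosen with earlier results of these data known. No list was given a test of its own. Numbers of the replicates pair libraries across groups. Residuals of same-numbered 50 µM and 10 µM libraries correlated over genes with r of 0.265, 0.479 and 0.427. Other pairs had -0.399 to -0.0533. Residuals are deviations from the group means, so positive values for same-numbered pairs make those of other pairs negative on average. The negative values are therefore no separate evidence of pairing. The labels do not say what a number shares. Alternatives were other pseudocounts, filters and scalings, the replicate block, array weights, the compared groups only, a minimum fold and leaving out each library. Motifs were searched in RefSeq promoter windows (GRCr8), in Python 3.11.15 with pandas 2.3.3 and numpy 2.4.6; figures were drawn with matplotlib 3.10.9.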

Additional observations from a re-analysis of the deposited data

Results flagged for a closer look

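Genes below were marked because the 50 against 10 µM step without phenylephrine differed from that with it in the interaction test (limma, adjusted over 10478 genes); each value is the step without minus the step with phenylephrine on the log2 scale. Leaving out any 1 of the 12 libraries kept the call of Acta1 (2.23), Tceal7 (2.11), Acot2 (1.29), Aloxe3 (1.65), Pdk2 (0.65), Nap1l5 (-2.09), LOC688553 (-2.04), Csrp2 (-1.84), Col4a3 (-1.43) and Dkk3 (-0.88). Aloxe3, at most 0.98 FPKM with phenylephrine, lost its call with a pseudocount of 0.1 (adjusted p = 0.143), and Dkk3 in the compared groups only (0.0524).

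The other 9 calls were lost when single libraries were left out. Without 10 µM replicate 3, Pgam2 (1.86) had an adjusted p of 0.0645, Testin (-2.47) 0.0736, Gadd45a (0.70) 0.092, Slc38a1 (0.74) 0.0764, Hspb6 (0.89) 0.0552, Aldoa (0.56) 0.0837, Acot1 (0.84) 0.105, Fzd1 (-1.0) 0.0888 and Igfbp3 (-0.81) 0.0994. Each was also lost without 50 µM replicate 3 (0.0506 to 0.0957) and without 10 µM with phenylephrine replicate 1 (0.0518 to 0.0896). Without 10 µM replicate 2 the calls of all but Acot1 were lost (0.0516 to 0.0836), and without 50 µM with phenylephrine replicate 1 those of all but Slc38a1 (0.0570 to 0.0969). Without 50 µM with phenylephrine replicate 3 the calls of Gadd45a, Slc38a1, Aldoa, Acot1, Fzd1 and Igfbp3 were lost (0.0671 to 0.099), and without 10 µM with phenylephrine replicate 2 those of Gadd45a, Aldoa, Acot1, Fzd1 and Igfbp3 (0.0584 to 0.075). Testin and Igfbp3 were lost without 10 µM with phenylephrine replicate 3 (0.0703 and 0.0669), Testin without 50 µM with phenylephrine replicate 2 (0.056), and Gadd45a, Fzd1 and Igfbp3 without 50 µM replicate 2 (0.0716, 0.0503 and 0.0852). Other settings ended some of these calls too. In the compared groups only, those of Gadd45a, Testin, Slc38a1, Aldoa, Acot1, Fzd1 and Igfbp3 were lost (0.0504 to 0.104), and with no filter those of Gadd45a, Testin, Fzd1 and Igfbp3 (0.0528 to 0.0649). Quantile normalization gave Aldoa 0.328 (adjusted p = 0.17) and ended the call of Hspb6 (0.051), and a pseudocount of 0.1 ended those of Testin (0.0676) and Acot1 (0.111; 0.0521 with a pseudocount of 0.5). The locus of Hspb6 overlaps Lin37, that of Nap1l5 overlaps Herc3, and Acot1 and Acot2 are near-identical. Causes were not tested.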

How the results depend on the processing

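The count of 5276 calls ran from 4456 (compared groups only) to 6205 (replicate block) over the alternatives that test for any change, and from 4493 to 5038 with 1 library left out. A test for more than a 2-fold change gave 152. The 741 calls of at least 2-fold ran from 677 to 1097 (pseudocount of 0.1), and from 677 to 822 with 1 library left out. The 313 differences between the dose steps became 1147 with the replicate block, 496 with array weights and 104 in the compared groups only, and 121 to 460 with 1 library left out; the causes were not tested. For 196 named genes, 3237 of 3322 alternative values kept direction and call, 66 lost the call, 19 gained it and none changed direction; for 20 differences of the steps, 360 of 438 kept the call and 78 lost it. Calls of named genes that ended without 1 library, and that are not described above, were those of Testin, Cyp1a1, Mnat1, Larp7, Sqle, Cyp51, Fdps, Gbp2, Pln, Actc1, Thy1, Col1a1, Col3a1 and Tek, with adjusted p of 0.0501 to 0.247 there. List counts of 1 to 4 called members moved by at most 3 members with 1 library left out. Quantile normalization moved the median of all genes from -0.018 to 0.031, and with the block, added after the data were seen, gave 6019 calls and 17 lower sarcomere genes. The replicate block ended no call of a named gene and added those of Acta1, Atp2a2, Ankrd1 and Lyz2. FPKM give no read depth, which limits genes near the floor.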

Other observations

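Stc1, a secreted regulator of calcium and phosphate, had 2.56, 4.15 and 4.19 FPKM at 50 µM, against 17.6, 35.4 and 37.3 FPKM at 10 µM (-2.69 ± 0.33, adjusted p = 7.2e-06, limma), and the groups did not overlap. Tmem71, a transmembrane protein, had 0.811, 1.12 and 1.54 FPKM at 50 µM, against 9.10, 17.7 and 15.6 FPKM at 10 µM (-2.78 ± 0.41, adjusted p = 4.7e-05), and Sorcs2, a neuronal sorting receptor whose locus overlaps Psapl1, had 1.94, 1.16 and 1.52 FPKM at 50 µM, against 9.36, 12 and 14.2 FPKM at 10 µM (-2.33 ± 0.26, adjusted p = 2.6e-06). Abca1, the exporter of cholesterol that LXR induces, had 5.69, 5.24 and 5.32 FPKM at 50 µM, against 11.1, 13.1 and 10.8 FPKM at 10 µM (-0.98 ± 0.14, adjusted p = 3.4e-05), while Npc2, which carries cholesterol out of lysosomes, rose (0.51 ± 0.087, adjusted p = 0.00015). Of 10 genes of the LXR list, 3 were higher and 3 lower. Bnip3, of the autophagy and hypoxia lists, had 209, 257 and 218 FPKM at 50 µM, against 111, 122 and 104.4 FPKM at 10 µM (1.01 ± 0.12, adjusted p = 6.4e-06). Of 14 hypoxia and VEGF genes 3 were higher and 4 lower (2 lower without 50 µM replicate 3). The shares of the LXR list and of this list were near those of all genes (25.4% higher and 24.9% lower).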
